A study of Mus musculus with 6 samples.

Results

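The 42 genes described here encode proteins of the lysosome in mouse: 14 subunits of its proton pump, 10 cathepsins, 7 glycosidases, 3 genes of activator proteins and a lipase, 5 membrane proteins, and the 3 MiT transcription factors that switch lysosomal genes on. They were taken by gene symbol from a list drawn up with earlier results of these data known. All 42 were found once each among the 21853 genes of the deposited table. The libraries were 3 of xCT knockout mouse embryonic fibroblasts (MEF) given red clover extract (RCE) and 3 of the same cells given water (control). Both groups carry the knockout, of strain C57BL/6J, with a labelled age of 12 days, so every comparison below is of the extract within knockout cells. MEF are connective tissue cells grown from embryos, and xCT, encoded by Slc7a11, is the cystine importer whose loss leaves cells prone to ferroptosis, the iron-dependent death that the study addresses. Neither the amount of extract, nor how long it was applied, nor how many cultures or clones were used is stated in the sources used here.

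The lysosome breaks down proteins, lipids and glycans with hydrolases that need an acid lumen. The vacuolar ATPase keeps it acid: its V1 sector splits ATP in the cytosol, and its V0 sector carries protons through the membrane. TFEB, TFE3 and MITF, the MiT factors, bind E-box sequences with the core CACGTG near many lysosomal genes. Acidification also frees iron from endocytosed transferrin and from ferritin, which ties these genes to the study's subject as background.

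Levels are in FPKM, a unit scaled to transcript length as well as depth, which allows genes to be set side by side. Values of the libraries of a group stand in the order of replicates 1, 2 and 3. Steps between low values gave depths of 45700000 to 59000000 fragments per library. Slc7a11 lay at 0.009, 0.017 and 0.007 FPKM in RCE libraries and 0.013, 0.027 and 0.037 FPKM in control libraries, close to the floor in all 6. Fibroblast markers were abundant, with a summed level of 5520.6 to 5896 FPKM over 10 genes in RCE libraries and 6073 to 6476.5 FPKM in control libraries. The first 2 principal components held 58.1% and 36.5% of the variance. Replicate 1 deviated from its group mean alike in both groups (correlation over genes 0.918). For replicates 2 and 3 the opposite pairing correlated more (0.724 and 0.771) than the same numbers did (0.62 and 0.681). Pairing by number thus rests on replicate 1, and for replicates 2 and 3 it is an assumption. Results are given without and with replicate number as a block, which compares libraries within each number. Changes are RCE minus control in log2(FPKM + 1), tested with limma over the 10870 genes whose mean reached 1 FPKM, with Benjamini-Hochberg adjustment over all of them and a threshold of 0.05. The labels do not say that replicates came from separate cultures, and the p-values speak only to how far these 6 libraries vary, which could be technical variation. The median change of all genes tested was 0.077.

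Most of the 42 transcripts were slightly less abundant with the extract. Few of these differences passed the threshold in the fit without the block. More did with the block, without both replicate 1 libraries or with median-of-ratios scaling (below). Without the block, 2 genes were lower (Atp6v0d1, a pump subunit, and Naglu, a glycosidase) and 1 was higher (Scarb2, a membrane receptor) of the 40 that reached the minimum level, against 6.77% of all genes tested lower and 17.6% higher. At an unadjusted p under 0.05, 8 were lower and 1 higher, against 9.48% of all genes tested lower and 28.5% higher. Leaving out any single library except RCE replicate 1 ended the calls of Naglu and Scarb2, and leaving out control replicate 2 ended that of Atp6v0d1 too. With no low-value filter 1 was lower and 2 were higher (5.24% and 11.3% of 17334 genes). With the replicate block 30 were lower and 1 higher, against 15.9% of all genes lower and 46.6% higher. With that block and without both replicate 1 libraries, 19 were lower and 1 higher (12.4% and 36.9%). Without both replicate 1 libraries and with no block, 22 were lower and 1 higher (13.6% and 40.1% of all genes). As most of these transcripts are abundant, genes averaging 20 FPKM or more are a closer background: of 3132 such genes, 7.92% were lower and 6.51% higher without the block, and 24.9% were lower and 31.4% higher with it. The 2 genes under the minimum, Ctss and Tfeb, are described by their values below.

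**Figure D1:**
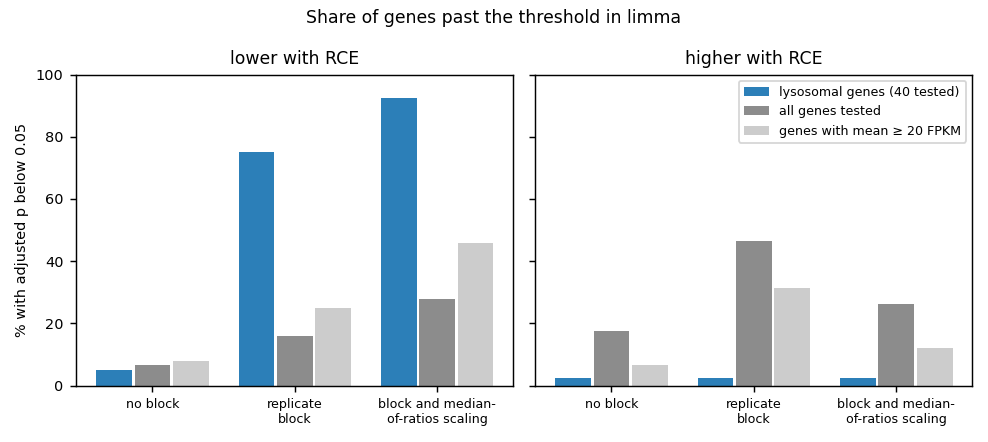
Percentage of genes past an adjusted p of 0.05 in limma, lower with RCE (left) and higher with RCE (right), for the lysosomal genes, all genes tested and genes averaging 20 FPKM or more, under 3 fits. With the block 30 of 40 lysosomal genes were lower, against 15.9% of all genes and 24.9% of those averaging 20 FPKM or more. Without it 2 of 40 were lower, against 6.77% and 7.92%.

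The median change of the 40 genes was -0.12 (-0.068 without RCE replicate 1), where all genes tested had 0.077 and those of at least 20 FPKM 0.02. The extract's library was the lower one for 39 of 42 genes in the pair numbered 1, 36 in the pair numbered 2 and 37 in the pair numbered 3, against 30 to 32.4% of all genes tested. In 34 genes it was lower in all 3 pairs, where this held for 20.6% of all genes tested and 31.6% of those of at least 20 FPKM, and in 2 it was higher in all 3 (56.5% of all genes tested). For 16 genes the 3 RCE values all lay below the 3 control values (10.9% of all genes tested), and for 2 they all lay above (31.2%). Except for genes lower in all 3 pairs, these shares were not computed among genes averaging 20 FPKM or more, the closer background. Median-of-ratios scaling, which sets the median of all genes to 0, lowered the median of the 40 genes to -0.20 and gave 15 lower and 0 higher without the block (9.95% and 8.4% of all genes), and 37 lower and 1 higher with it (27.7% and 26.4%, or 45.9% and 12.2% of genes averaging 20 FPKM or more). The 42 genes together made up 1.1, 1.16 and 1.17% of all FPKM in RCE libraries, against 1.23, 1.27 and 1.27% in control libraries, and the groups did not overlap. In RNA from whole cultures, less RNA per cell and fewer cells of one kind cannot be told apart.

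**Figure D2:**
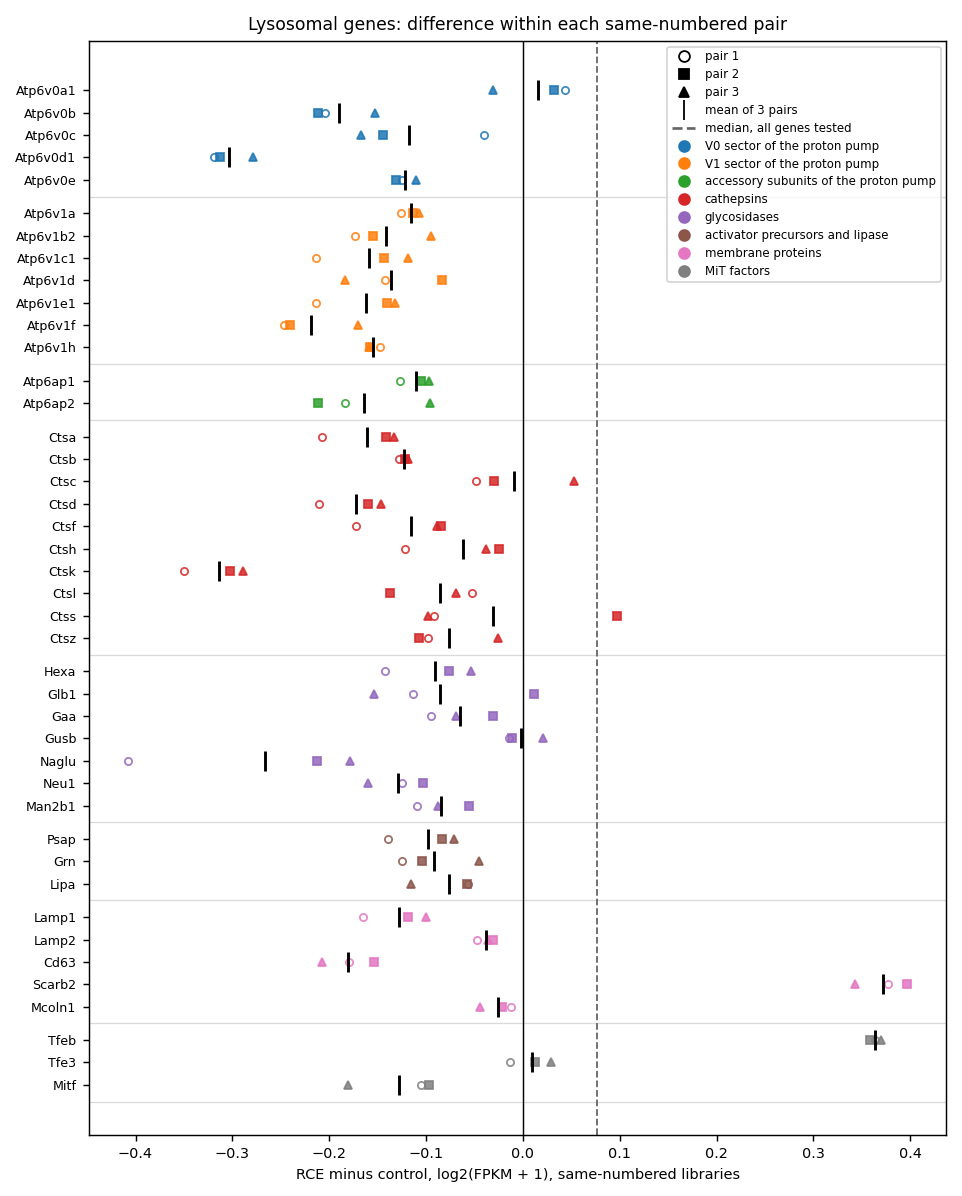
Difference between RCE and control libraries of the same number in log2(FPKM + 1), for each of the 42 genes by class; symbols are pairs 1, 2 and 3, black ticks their mean, and the dashed line the median of all genes tested. In 34 genes all 3 pairs lie below 0, and Scarb2 and Tfeb stand alone on the right.

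Levels ran over almost 3 orders of magnitude and kept a similar order in both groups. Ctsd, the aspartic protease cathepsin D, was the most abundant with 450.5, 509 and 515 FPKM in RCE libraries, against 521, 569 and 569.7 FPKM in control libraries. Psap, the precursor of the saposins that present lipids to hydrolases, had 442, 475 and 476 FPKM in RCE libraries, against 487, 504 and 499.7 FPKM in control libraries. Lamp1, a heavily glycosylated protein that lines the lysosomal membrane, had 422, 456 and 465 FPKM in RCE libraries, against 473, 496 and 498 FPKM in control libraries. In each of these 3 genes the groups did not overlap, the RCE values being the lower, while the ranges of Psap and Lamp1 overlapped within each group. At the low end, Mitf, Tfeb and the cathepsin Ctss stayed near or under 2 FPKM.

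**Figure D3:**
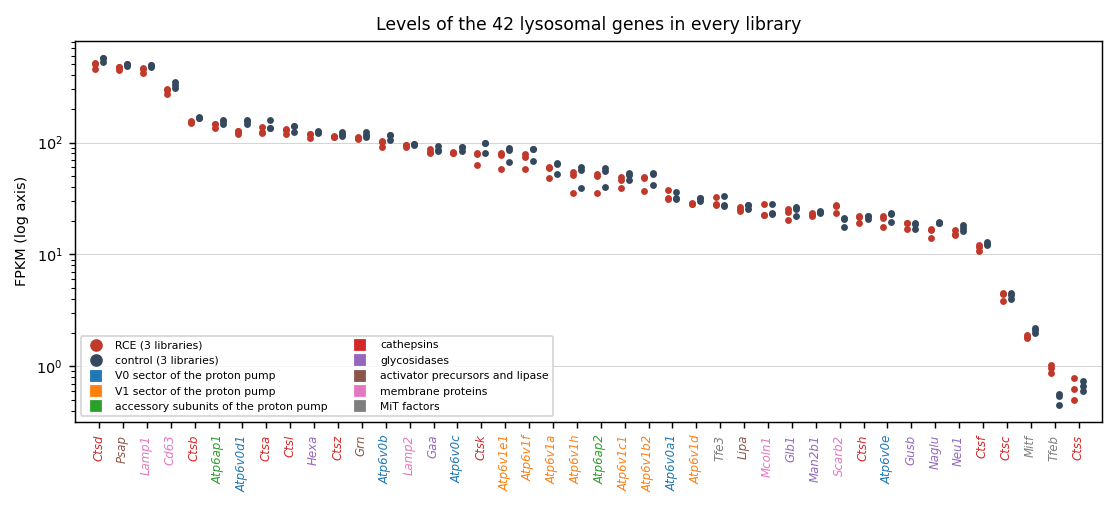
FPKM of the 42 genes in each of the 3 RCE and 3 control libraries, on a log axis, ordered by their mean over all 6; name colours give the class. Ctsd, Psap and Lamp1 lead, and Mitf, Tfeb and Ctss are the lowest.

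Subunits of the proton pump were lower with the extract in 13 of 14 cases by the sign of the change. In these 13 the RCE library was lower in all 3 pairs (20.6% of all genes tested, and 31.6% of those averaging 20 FPKM or more). Past the threshold, 1 was lower without the block (6.77% of all genes tested). With the block 13 were (15.9% of all genes tested, and 24.9% of those averaging 20 FPKM or more). The exception was Atp6v0a1. The median change was -0.15 over the 14 subunits, -0.12 over the 5 of V0 and -0.16 over the 7 of V1. The summed level of the V0 subunits was 346.9, 363.2 and 365.9 FPKM in RCE libraries and 393.5, 420.6 and 417.6 FPKM in control libraries, which did not overlap, while that of the V1 subunits, 304, 384.4 and 400.3 FPKM with RCE against 347.1, 429.2 and 440.9 FPKM in control, did.

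Atp6v0d1 (ENSMUSG00000013160, chromosome 8, 105524465 to 105566047 on mm10) encodes subunit d1, which couples the turning stalk of V1 to the ring of V0, and changed most of the 14 pump genes. It had 119, 127 and 128 FPKM in RCE libraries, against 148, 158 and 155 FPKM in control libraries. All RCE values lay below all control values, and the means, 125 ± 5.21 FPKM in RCE and 154 ± 5.29 FPKM in control libraries (SD, n = 3 each), differed by 19.1%. Its log2 change was -0.30 (SE 0.054), with adjusted p = 0.0107 without the block and 4.07e-05 with it in limma. Leaving out control replicate 2 ended the call without the block (adjusted p = 0.0509), and the change was -0.30 without both replicate 1 libraries. The stretch of 300 bases around its start, 250 before and 50 after (chr8:105566015-105566314 on the minus strand, RefSeq, GRCm38.p6), is shown because this gene changed and because its E-box core, in capitals, begins 3 bases before the RefSeq start within the longer form TCACGTGA.

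Atp6v0d1: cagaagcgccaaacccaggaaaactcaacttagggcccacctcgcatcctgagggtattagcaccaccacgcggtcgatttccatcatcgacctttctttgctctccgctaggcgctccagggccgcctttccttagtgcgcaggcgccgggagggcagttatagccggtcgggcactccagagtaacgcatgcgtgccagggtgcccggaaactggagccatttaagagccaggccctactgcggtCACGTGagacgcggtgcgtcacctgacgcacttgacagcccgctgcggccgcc

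Of the other V0 subunits, Atp6v0b, a proteolipid of the rotor ring, had 92.2, 101 and 104 FPKM in RCE libraries, against 106, 117 and 116 FPKM in control libraries. Its groups did not overlap either, and its change of -0.19 had an adjusted p = 0.0899 without the block and 0.000458 with it. Atp6v0c, the main proteolipid of that ring, had 81.0, 81.9 and 80.6 FPKM in RCE libraries, against 83.3, 90.6 and 90.6 FPKM in control libraries (adjusted p = 0.142 without the block and 0.0107 with it), also without overlap. Its 2 named pseudogenes could share fragments with it. Atp6v0e, the small subunit e, changed by -0.12, its groups overlapped, and replicate 1 was the lowest library of each (adjusted p = 0.435 without the block and 0.00357 with it). Atp6v0a1, the subunit through which protons pass, had 37.5, 32.0 and 31.3 FPKM in RCE libraries, against 36.3, 31.2 and 32.0 FPKM in control libraries. Its change of 0.02 was smaller than its SE of 0.09, and with the block its interval was -0.05 to 0.08 (adjusted p = 0.638). Its sign turned with median-of-ratios scaling, to -0.07.

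Of the 7 V1 subunits, 0 passed without the block and 7 were lower with it (24.9% of genes averaging 20 FPKM or more). In 6 of the 7, replicate 1 was low in both groups. Atp6v1h, the regulatory subunit H, had 35.3, 50.8 and 54.0 FPKM in RCE libraries, against 39.3, 56.8 and 60.4 FPKM in control libraries. Replicate 1 was about as low in both groups, and within each number the RCE library was lower, so that the change of -0.15 had an SE of 0.21 without the block and 0.024 with it (adjusted p = 0.645 without the block and 0.000836 with it). Without RCE replicate 1 and with no block it was 0.03. Atp6v1a, the subunit that splits ATP, had 48.3, 59.0 and 60.5 FPKM in RCE libraries, against 52.8, 63.9 and 65.3 FPKM in control libraries, with a change of -0.12 (adjusted p = 0.518 without the block and 0.00343 with it). Its partner Atp6v1b2 changed by -0.14 (adjusted p = 0.507 without the block and 0.00223 with it). In both, the groups overlapped and the RCE library was lower in 3 of 3 pairs.

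Atp6v1e1, of the outer stalk, had the highest mean over all 6 libraries of the 7 V1 subunits, with 57.8, 78.2 and 81.4 FPKM in RCE libraries, against 67.1, 86.2 and 89.4 FPKM in control libraries. It changed by -0.16 (adjusted p = 0.517 without the block and 0.00122 with it), and its exons overlap Slc25a18 on the other strand. Atp6v1f, of the central stalk, had the largest change of these 7, -0.22, with 57.6, 73.8 and 78.4 FPKM in RCE libraries, against 68.5, 87.4 and 88.3 FPKM in control libraries (adjusted p = 0.325 without the block and 0.000276 with it). A further V1 subunit outside the 42 genes, Atp6v1g1, was more abundant and differed more, with 103, 127 and 134 FPKM in RCE libraries, against 122, 154 and 154 FPKM in control libraries (-0.24, adjusted p = 0.238 without the block and 0.000189 with it). Of the 5 tested pump subunits outside the 42 genes, it was the only 1 with a change below 0, and their median change was 0.063. With the block 1 of these 5 was lower and 1 higher (15.9% and 46.6% of all genes tested). Atp6v1c1, which links the stalks to V0, changed by -0.16 (adjusted p = 0.273 without the block and 0.00154 with it). The 1 of the 7 whose groups did not overlap was Atp6v1d, of the central stalk, with 28.6, 28.1 and 28.1 FPKM in RCE libraries, against 31.7, 29.9 and 32.1 FPKM in control libraries. In it replicate 1 was not low, and its change was -0.14 (adjusted p = 0.0717 without the block and 0.00361 with it).

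The 2 accessory subunits moved alike in sign. Atp6ap1, which helps assemble and sort the pump, had 134, 147 and 146 FPKM in RCE libraries, against 147, 158 and 156 FPKM in control libraries without overlap and changed by -0.11 (adjusted p = 0.217 without the block and 0.00539 with it). Atp6ap2, the prorenin receptor, changed by -0.16 with overlapping groups of 35.1, 50.8 and 52.0 FPKM in RCE libraries, against 40.0, 59.0 and 55.6 FPKM in control libraries (adjusted p = 0.596 without the block and 0.00176 with it). Without RCE replicate 1 and with no block the change of Atp6ap2 was 0.015. Without both replicate 1 libraries and with the block on the 4 that were left, 12 of the 14 pump genes were lower past the threshold (12.4% of all genes tested were lower in that fit). Atp6ap1 was not among them (adjusted p = 0.0701).

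**Figure D4:**
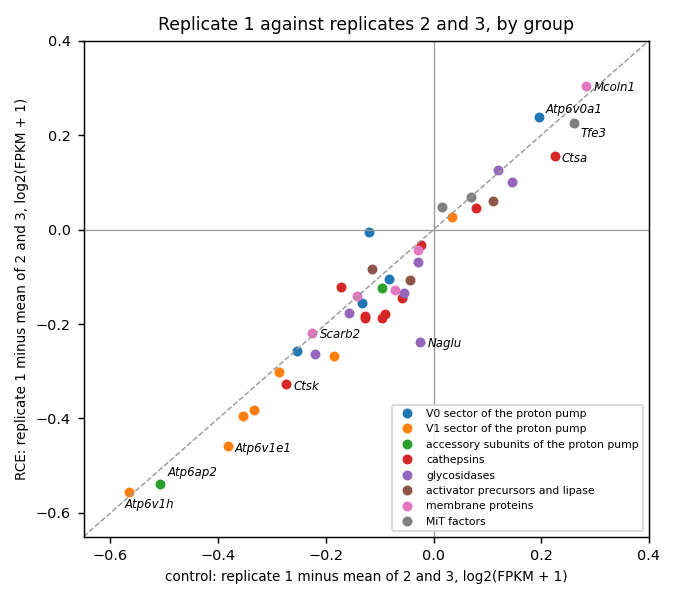
Replicate 1 minus the mean of replicates 2 and 3 in log2(FPKM + 1), for RCE libraries (vertical) against control libraries (horizontal), 1 point per gene; the dashed line marks equal deviations. In 31 genes replicate 1 was below the others in both groups and in 11 above them in both, with Atp6v1h and Atp6ap2 lowest and Mcoln1 highest.

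Among all genes tested, replicate 1 was below the others in both groups for 48.7% and above them in both for 38.4%. In the cathepsins 8 of 10 were below in both groups, and all 3 MiT factors were above the others in both groups. Transcript GC content went with this deviation across the 40 genes (Spearman's rho of 0.24 in RCE and 0.35 in control) much as across all genes tested (0.33 and 0.35), a description over genes that share 6 libraries. Its part in the results was not tested beyond the GC correction, under which 11 of the 40 genes were lower and 1 higher without the block (10.9% and 8.22% of all genes), and 37 and 1 with it (27.2% and 25.3%).

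Cathepsins, the proteases of the lysosome, gave no call without the block, where 6.77% of all genes tested were lower. With it 7 of the 9 cathepsins tested were lower (15.9% of all genes tested, and 24.9% of those averaging 20 FPKM or more). The median change was -0.12. The summed level was 1071, 1145 and 1154.5 FPKM in RCE libraries and 1211, 1273 and 1263 FPKM in control libraries, without overlap. Ctsk (ENSMUSG00000028111, chromosome 3, 95499256 to 95509362 on mm10), a cysteine protease that cleaves collagen, had the largest difference of all 42 genes in the negative direction. Its level was 63.5, 79.7 and 80.2 FPKM in RCE libraries, against 81.3, 98.6 and 98.2 FPKM in control libraries, and no RCE library reached the lowest control library. The means, 74.5 ± 9.49 FPKM in RCE and 92.7 ± 9.90 FPKM in control libraries (SD, n = 3 each), differed by 19.6%, a log2 change of -0.31 with an SE of 0.12 without the block and 0.025 with it (adjusted p = 0.105 without the block and 3.65e-05 with it).

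Ctsd, described above by its level, changed by -0.17 (adjusted p = 0.141 without the block and 0.00155 with it), and another annotated gene, Gm49369, overlaps its exons on the same strand. Ctsb, an abundant cysteine protease, had 151, 156 and 152 FPKM in RCE libraries, against 165, 169.7 and 165 FPKM in control libraries and a change of -0.12 (adjusted p = 0.0891 without the block and 0.00301 with it). Its groups did not overlap. Exons of Fdft1 lie on the other strand, and whether counting used strand was not given. Ctsa, the carboxypeptidase that holds the galactosidase Glb1 and the sialidase Neu1 in a complex, had 137, 122 and 123 FPKM in RCE libraries, against 158, 135 and 135 FPKM in control libraries (adjusted p = 0.208 without the block and 0.00128 with it). In Ctsa replicate 1 was the highest library of each group, and the RCE library was lower in 3 of 3 pairs.

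Ctsf, a cysteine protease, differed without overlap by -0.12 (adjusted p = 0.189 without the block and 0.0117 with it). Smaller values were found for the cysteine protease Ctsl, at -0.09 (adjusted p = 0.415 without the block and 0.0249 with it), and the carboxypeptidase Ctsz, at -0.08 (adjusted p = 0.307 without the block and 0.0378 with it). With the block and without both replicate 1 libraries, Ctsf, Ctsl and Ctsz were not called (adjusted p = 0.107, 0.0715 and 0.221). In a fit over every gene, with no minimum level, neither Ctsl nor Ctsz was called with the block (adjusted p = 0.0517 and 0.0671). The aminopeptidase Ctsh, with 19.1, 21.8 and 21.6 FPKM in RCE libraries, against 20.8, 22.2 and 22.2 FPKM in control libraries, and Ctsc, which activates granule proteases in blood cells, with 3.82, 4.43 and 4.54 FPKM in RCE libraries, against 3.98, 4.54 and 4.34 FPKM in control libraries, did not pass in either fit. With the block their intervals were -0.13 to 0.01 and -0.09 to 0.08.

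Ctss, a cathepsin of antigen-presenting cells, lay under the minimum at 0.499, 0.786 and 0.63 FPKM in RCE libraries, against 0.598, 0.669 and 0.745 FPKM in control libraries. The groups overlapped, and a 2-sided exact permutation test of its FPKM gave p = 0.9. Of 10 macrophage markers, 4 reached the minimum level and 1 was lower past the threshold without the block (Lyz2, lysozyme, with 7.83, 9.07 and 8.04 FPKM in RCE libraries, against 11.7, 11.6 and 11.3 FPKM in control libraries) and 0 higher. With the block 1 was lower, again Lyz2, and 1 higher, Cd14, a receptor for bacterial lipopolysaccharide, with 1.47, 2.06 and 1.65 FPKM in RCE libraries, against 1.31, 1.55 and 1.36 FPKM in control libraries (log2 change 0.17, adjusted p = 0.193 without the block and 0.0119 with it). With the block and no low-value filter, 4 of the 10 were lower and 1 higher, again Cd14 (11% and 28.1% of all genes in that fit). The 4 were Lyz2 and, under the minimum, Csf1r (adjusted p = 0.0125), Tyrobp (0.0204) and Mrc1 (0.0398). The RCE library was lower in all 3 pairs for 6 of the 10 and higher in all 3 for 1 (20.6% and 56.5% of all genes tested). The summed level of the 10 was 14.7 to 16.5 FPKM in RCE libraries and 19 to 19.9 FPKM in control libraries, most of it from Lyz2, while the leukocyte marker Ptprc was at 0.03 to 0.045 FPKM in RCE libraries and 0.051 to 0.079 FPKM in control libraries, and Aif1 was listed at 0 in 1 RCE library and 2 control libraries. Of 6 osteoclast markers, looked at because Ctsk is abundant in osteoclasts, 1 reached the minimum level, and Dcstamp was listed at 0 in all 6 libraries. Their summed level was 5.32 to 5.46 FPKM in RCE libraries and 10.6 to 11.3 FPKM in control libraries, which came mainly from Itgb3, an integrin that other cells express too (log2 change -1.11, adjusted p = 6.17e-05 without the block and 2.31e-07 with it). Acp5, the acid phosphatase of osteoclasts, lay under the minimum and went the other way, with 0.96, 0.991 and 0.906 FPKM in RCE libraries, against 0.755, 0.827 and 0.817 FPKM in control libraries, without overlap (adjusted p = 0.0486 with no low-value filter and 0.0367 with the block added). Their part in the cathepsin results was not tested.

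Glycosidases trim sugars from glycans and glycolipids. They were lower in 1 of 7 cases without the block (6.77% of all genes tested). With it they were lower in 4 of 7 (15.9% of all genes tested, and 24.9% of those averaging 20 FPKM or more), and none was higher in either fit. Their median change was -0.085. Naglu (ENSMUSG00000001751, chromosome 11, 101070012 to 101077672 on mm10), which removes N-acetylglucosamine from heparan sulfate, had 14.0, 16.4 and 16.99 FPKM in RCE libraries, against 18.9, 19.2 and 19.4 FPKM in control libraries. The 3 control libraries lay close together, RCE replicate 1 was the lowest of the 6, and the groups did not overlap. The means, 15.8 ± 1.58 FPKM in RCE and 19.2 ± 0.214 FPKM in control libraries (SD, n = 3 each), differed by 17.5%, with a log2 change of -0.27 (SE 0.073, adjusted p = 0.0428 without the block and 0.0012 with it). The call without the block ended with 5 of the 6 libraries left out in turn: RCE replicate 2 (adjusted p = 0.0972), RCE replicate 3 (0.0543), control replicate 1 (0.0741), control replicate 2 (0.122) and control replicate 3 (0.128). It also ended with all expressed genes in the fit (0.058), a minimum of 5 FPKM (0.0556) and GC correction (0.0877). The change was -0.19 without RCE replicate 1 and -0.20 without both replicate 1 libraries.

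The stretch around the start of Naglu (chr11:101069844-101070143 on the plus strand) is given since it too holds the CACGTG core, in capitals, 73 bases before the start.

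Naglu: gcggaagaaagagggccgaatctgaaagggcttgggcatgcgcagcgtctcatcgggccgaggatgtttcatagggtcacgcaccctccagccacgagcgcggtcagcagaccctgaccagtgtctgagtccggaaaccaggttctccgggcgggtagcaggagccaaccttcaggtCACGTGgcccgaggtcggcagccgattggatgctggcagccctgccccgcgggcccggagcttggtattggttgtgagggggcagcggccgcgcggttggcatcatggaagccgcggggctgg

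Hexa, the alpha subunit of beta-hexosaminidase, was the most abundant of the 7 glycosidases, with 109, 120.4 and 119.8 FPKM in RCE libraries, against 121, 127 and 124 FPKM in control libraries. Its groups did not overlap, and the change was -0.09 (adjusted p = 0.282 without the block and 0.0201 with it). The sialidase Neu1 changed by -0.13 (adjusted p = 0.182 without the block and 0.00391 with it) and the alpha-mannosidase Man2b1 by -0.08 (adjusted p = 0.204 without the block and 0.0219 with it). With the block and with replicate 1 of both groups left out, Hexa and Man2b1 were not called (adjusted p = 0.212 and 0.153). The acid alpha-glucosidase Gaa had 88.0, 82.9 and 81.0 FPKM in RCE libraries, against 94.0, 84.7 and 85.1 FPKM in control libraries, the galactosidase Glb1 had 20.4, 25.6 and 23.9 FPKM in RCE libraries, against 22.2, 25.4 and 26.6 FPKM in control libraries, and neither passed in either fit (adjusted p = 0.0528 and 0.0627 with the block). Gusb, beta-glucuronidase, had 16.8, 19.1 and 19.0 FPKM in RCE libraries, against 16.9, 19.3 and 18.7 FPKM in control libraries. Its libraries matched within each number, and with the block the interval of its change was -0.06 to 0.06. With median-of-ratios scaling and the block, Gusb was called lower as well (-0.08, adjusted p = 0.0248).

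The 3 genes of activators and lipid breakdown were lower with the block and not without it (15.9% and 6.77% of all genes tested, and 24.9% and 7.92% of those averaging 20 FPKM or more). Psap changed by -0.10 (adjusted p = 0.237 without the block and 0.0212 with it). Grn, which encodes progranulin, the precursor of granulins, had 113, 108 and 109 FPKM in RCE libraries, against 124, 116 and 113 FPKM in control libraries and changed by -0.09 (adjusted p = 0.258 without the block and 0.0173 with it). Lipa, the acid lipase that frees cholesterol and fatty acids, had 24.6, 26.7 and 25.6 FPKM in RCE libraries, against 25.6, 27.8 and 27.8 FPKM in control libraries and changed by -0.08 (adjusted p = 0.35 without the block and 0.0335 with it). Without both replicate 1 libraries and with the block, 0 of these 3 passed, and with every gene in the fit Psap was not called with the block (adjusted p = 0.0716).

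Of the 5 membrane proteins, 1 was higher and 0 lower without the block (17.6% and 6.77% of all genes tested). With it 1 was higher and 2 lower (46.6% and 15.9% of all genes tested, and 31.4% and 24.9% of those averaging 20 FPKM or more). Their median change was -0.038. Scarb2 (ENSMUSG00000029426, chromosome 5, 92441314 to 92506833 on mm10) encodes LIMP-2, a sorting receptor of the lysosomal membrane, and was the 1 gene of the 40 that was higher. It had 23.3, 27.4 and 27.1 FPKM in RCE libraries, against 17.7, 20.6 and 21.2 FPKM in control libraries. Every RCE library lay above every control library, although replicate 1 was the lowest of each group. The means, 26.0 ± 2.30 FPKM in RCE and 19.8 ± 1.85 FPKM in control libraries (SD, n = 3 each), differed by 30.9%, with a log2 change of 0.37 (SE 0.091, adjusted p = 0.0301 without the block and 1.7e-05 with it). Without the block the call ended with 5 libraries left out in turn: RCE replicate 2 (adjusted p = 0.111), RCE replicate 3 (0.0991), control replicate 1 (0.0528), control replicate 2 (0.0761) and control replicate 3 (0.0589). It also ended with median-of-ratios scaling (0.29, 0.0543), though not with that scaling and the block (adjusted p = 5.37e-05). Without both replicate 1 libraries the change was 0.37.

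The start of Scarb2 (chr5:92505608-92505907 on the minus strand) had no CACGTG and is shown as the gene that went the other way. Capitals mark 1 match to TCATGTG, a related element that MITF also binds, which here reads CACATGA because it lies on the other strand.

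Scarb2: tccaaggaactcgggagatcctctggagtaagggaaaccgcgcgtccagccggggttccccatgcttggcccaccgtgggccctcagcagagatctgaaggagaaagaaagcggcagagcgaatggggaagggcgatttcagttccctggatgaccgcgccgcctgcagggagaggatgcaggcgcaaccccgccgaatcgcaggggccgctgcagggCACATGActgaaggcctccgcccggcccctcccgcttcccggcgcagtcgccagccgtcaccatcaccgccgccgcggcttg

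Lamp1, the most abundant of the 5 membrane proteins, changed by -0.13 without overlap (adjusted p = 0.165 without the block and 0.00613 with it, and 0.105 with it and without both replicate 1 libraries). Its window (chr8:13158911-13159210 on the plus strand) is shown because it held 4 copies of CACGTG, in capitals, the most among the 37 genes with a window.

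Lamp1: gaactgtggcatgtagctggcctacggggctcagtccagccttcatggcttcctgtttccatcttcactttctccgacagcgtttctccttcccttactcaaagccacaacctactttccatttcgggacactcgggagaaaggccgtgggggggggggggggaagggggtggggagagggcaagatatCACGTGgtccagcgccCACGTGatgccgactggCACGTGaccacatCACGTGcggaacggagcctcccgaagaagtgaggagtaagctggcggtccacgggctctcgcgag

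Cd63, a tetraspanin of late endosomes and lysosomes, had 269, 293 and 301 FPKM in RCE libraries, against 305, 326 and 347 FPKM in control libraries. The groups did not overlap, and the change was -0.18 (adjusted p = 0.117 without the block and 0.000812 with it). A named pseudogene could share its fragments. Lamp2, which also serves chaperone-mediated autophagy, had 92.2, 95.4 and 94.4 FPKM in RCE libraries, against 95.3, 97.5 and 96.9 FPKM in control libraries, with a blocked interval of -0.09 to 0.02 (adjusted p = 0.193).

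Mcoln1 encodes TRPML1, a channel that lets calcium and iron out of the lysosome, and is a known MiT target. It had 28.1, 22.6 and 22.6 FPKM in RCE libraries, against 28.4, 22.9 and 23.3 FPKM in control libraries. Replicate 1 was the highest library in both groups, and the values matched closely within each number. Its change of -0.03 did not pass without the block (adjusted p = 0.899) or with it (adjusted p = 0.389, interval -0.08 to 0.03). Scaling by the median of ratios moved it to -0.11 (adjusted p = 0.00754 with the block). Its window (chr8:3500269-3500568 on the plus strand), shown for comparison with the others, held 2 copies of CACGTG, in capitals.

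Mcoln1: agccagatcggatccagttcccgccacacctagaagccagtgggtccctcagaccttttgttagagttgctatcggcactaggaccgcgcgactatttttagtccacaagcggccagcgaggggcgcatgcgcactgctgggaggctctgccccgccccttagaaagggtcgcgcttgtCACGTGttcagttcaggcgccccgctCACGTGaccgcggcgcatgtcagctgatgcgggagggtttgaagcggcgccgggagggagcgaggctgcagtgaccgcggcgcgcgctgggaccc

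The 3 MiT factors, which are known to bind DNA as dimers, had a summed level that was nearly all Tfe3, and are given one by one. Tfeb (ENSMUSG00000023990, chromosome 17, 47737030 to 47792419 on mm10), the best known activator of lysosomal genes, had 1.02, 0.974 and 0.88 FPKM in RCE libraries, against 0.571, 0.54 and 0.455 FPKM in control libraries. Every RCE library was above every control library, and the means, 0.959 ± 0.0722 FPKM in RCE and 0.522 ± 0.0601 FPKM in control libraries (SD, n = 3 each), stood in a ratio of 1.84. The mean of all 6 libraries, 0.74 FPKM, lay under the minimum. A 2-sided exact permutation test of its FPKM gave p = 0.1, the smallest that 3 libraries against 3 can give. In the limma fit with no low-value filter, over 17334 genes, its change was 0.36 (adjusted p = 0.00468, and 0.00132 with the block), where 11.3% of genes were higher without the block and 28.1% with it. Over the longest form of Tfeb in the annotation, 1 fragment equals 0.00724 to 0.00934 FPKM, depending on the library, far below each of these values.

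Tfe3 (ENSMUSG00000000134, chromosome X, 7762560 to 7775202 on mm10) was the most abundant of the 3, with 32.7, 28.1 and 27.6 FPKM in RCE libraries, against 33.0, 27.8 and 27.01 FPKM in control libraries. Replicate 1 was the highest in both groups and the others matched, for a change of 0.01 (SE 0.10, adjusted p = 0.957 without the block and 0.753 with it, blocked interval -0.05 to 0.07). Its sign turned with median-of-ratios scaling, to -0.07, and with that and the block it was called lower (adjusted p = 0.0345). Mitf had 1.90, 1.78 and 1.82 FPKM in RCE libraries, against 2.12, 1.98 and 2.19 FPKM in control libraries, with every RCE library below every control library. Its change of -0.13 (SE 0.043) had an adjusted p = 0.0786 without the block and 0.0243 with it, and it was not called with the block when all 17334 genes were fitted (0.0562) or both replicate 1 libraries were left out (0.0665). Summed over the 3 factors, the level was 35.7, 30.9 and 30.3 FPKM in RCE libraries and 35.7, 30.4 and 29.7 FPKM in control libraries. Of 6 melanocyte markers, the cell type best known for Mitf, Dct and Tyr were listed at 0 in all 6 libraries and 0 reached the minimum level.

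**Figure D5:**
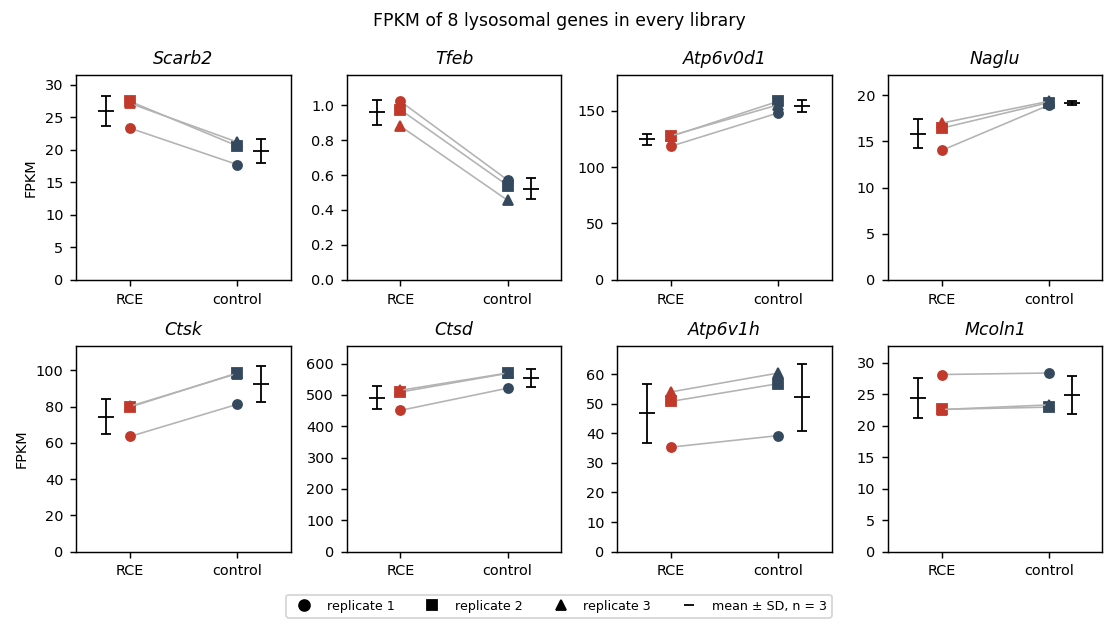
FPKM in each RCE and control library for 8 genes, with lines joining libraries of the same number and bars giving the mean ± SD of 3 libraries; every vertical axis starts at 0. Scarb2 and Tfeb are higher in each RCE library than in any control library, Atp6v0d1, Naglu, Ctsk and Ctsd are lower, and in Atp6v1h and Mcoln1 replicate 1 stands apart from the others in both groups.

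Promoter windows from RefSeq (250 bases before to 50 after each start, GRCm38.p6) were found for 37 of the 42 genes, as 46 windows. The core CACGTG, which reads the same on both strands, was present in 13 of these windows (28.3%), each of a different gene, against 7.15% of 32851 windows of all genes. TCACGTGA, which contains that core, was in 6 of 46 windows (13%), those of Atp6v0d1, Atp6v0e, Atp6v1a, Ctsa, Ctsd and Mcoln1, against 0.974% of all. The consensus of the CLEAR element, a palindrome of 10 bases around the same core, was in 0 of them and in 0.326% of all, and TCATGTG, on either strand, was in 5 (10.9%) against 3.77%. None of the windows of Tfeb, Tfe3 and Mitf held CACGTG. The median change was -0.12 over the 13 genes with the core and -0.094 over the 22 tested genes whose windows lacked it. A match describes the letters of the window and does not show binding.

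A further 96 lysosomal genes were listed by function. Of the 81 tested, 5 were lower and 1 higher without the block (6.77% and 17.6% of all genes tested), and 27 lower and 14 higher with it (15.9% and 46.6%), with a median change of -0.033. The hydrolases among them had 13 of 33 lower and 6 higher with the block. These lists and the 42 genes were drawn up with earlier results of these data known.

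Gpnmb, a glycoprotein of lysosomes and melanosomes and a known MiT target, had 32.9, 31.5 and 31.7 FPKM in RCE libraries, against 39.7, 38.8 and 38.5 FPKM in control libraries (-0.28, adjusted p = 0.00597 without the block and 5.51e-05 with it). Glmp, a glycosylated lysosomal membrane protein, changed by -0.15 (adjusted p = 0.0412 without the block and 0.00109 with it). Fnip2, a partner of folliculin in the nutrient-sensing switch that keeps MiT factors in the cytosol, had 6.69, 7.71 and 7.68 FPKM in RCE libraries, against 8.80, 8.87 and 8.79 FPKM in control libraries (-0.23, adjusted p = 0.0324 without the block and 0.00162 with it). The 1 gene that was higher without the block was Tcirg1, the a3 form of the V0 subunit whose a1 form is Atp6v0a1. It had 13.7, 12.6 and 13.0 FPKM in RCE libraries, against 11.1, 11.6 and 10.1 FPKM in control libraries, without overlap (0.24, adjusted p = 0.0348 without the block and 0.00181 with it). The call of Tcirg1 without the block ended with any single library left out (adjusted p = 0.0544 to 0.0978), with GC correction (0.0507), quantile normalization (0.113) and median-of-ratios scaling (0.151). That of Glmp also ended with any single library left out (0.0712 to 0.147) and with quantile normalization (0.0586), and that of Fnip2 with each but RCE replicate 1 left out (0.0636 to 0.103). Gpnmb was called with each of the 6 libraries left out (0.00954 to 0.0417). Lower calls among these 96 genes numbered 1 without RCE replicate 2, control replicate 2 or control replicate 3, 2 without RCE replicate 3, 3 without control replicate 1 and 5 without RCE replicate 1.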

How the data were processed

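Messenger RNA libraries (TruSeq Stranded mRNA, TRIzol extraction, per the labels' protocols) of 6 samples were grouped by their titles as RCE (n = 3) or control (n = 3). The authors deposited 1 value per gene and library in FPKM, per the submitters' processing notes and the values, as the header gives column names only. The same notes list, with no order, STAR 2.5.4, Cuffdiff 2.2.1, Cufflinks and the build mm10. The gene annotation, any filters and the strand setting are not given in the sources used here. Because FPKM are relative, a transcript that takes more of a library lowers the rest, and as normalized values they were not put into a count model.

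All 21853 Ensembl identifiers were in GENCODE M21 (mm10), which gave coordinates, overlaps and GC content. Exons of 10 of the 42 genes overlap a gene on the other strand, and those of 3 a gene on the same strand. Depth came from genes with 1 annotated transcript, as the value at which FPKM between 0.02 and 0.5 were whole fragments within 0.1; all of 269 to 296 values per library were, against 13.2 to 15.2% at other depths. This gives counting precision only.

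The test was limma 3.58.1 in R 4.3.3, 2-sided, with trend, applied to log2(FPKM + 1) of the 10870 genes averaging 1 FPKM or more and adjusted by Benjamini-Hochberg; the 2 genes below it were tested by an exact permutation test (scipy 1.17.1). Deviations from the group means correlated at 0.918, 0.62 and 0.681 for libraries numbered 1, 2 and 3, and numbers were taken to pair libraries. For replicates 2 and 3 the opposite pairing correlated more (0.724 for RCE 2 with control 3, and 0.771 for RCE 3 with control 2). Deviations cancel out within a group and replicate 1 stood apart in both. These correlations therefore cannot show how replicates 2 and 3 pair. The labels give the numbers no meaning. The fit without the block was the primary one. That fit was tested on simulated data with independent noise in each library and no shared replicate effect. The blocked fit was not tested in this way. The genes, lists and tests were chosen with earlier results of these data known. Values in every library are given for genes past the threshold, the MiT factors, the most abundant and most changed gene of each class, and further ones chosen after their values were seen. Of the other lysosomal genes, those past the threshold without the block are named, except some that are not reported here, and Atp6v1g1 was named after its values were seen.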

Additional observations from a re-analysis of the deposited data

How the results depend on the processing

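Alternatives were pseudocounts of 0.1 and 0.5, no low-value filter or a minimum of 5 FPKM, quantile normalization, median-of-ratios scaling, a fit with no trend, array weights (whose estimate stopped before its tolerance was reached), the replicate block alone or with that scaling, each library left out, and both replicate 1 libraries left out. GC correction with and without the block, the block without replicate 1 and the block with no low-value filter were added after seeing the data. The median change of the lysosomal genes stayed below 0 in all of them, the extremes being -0.20 (median-of-ratios scaling) and -0.068 (RCE replicate 1 left out). With only 3 libraries a group, the number of calls depended strongly on whether number was a block. It also depended on whether the replicate 1 libraries were included and on the scaling.

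Of all genes, 1910 were higher and 736 lower without the block. Higher and lower counts were 5060 and 1730 with the replicate block, 2871 and 3013 with the block and median-of-ratios scaling, 2745 and 2952 with the block and GC correction, 4874 and 1909 with the block and no low-value filter, and 4014 and 1352 with the block without replicate 1. They were 5047 and 1731 with array weights, 4364 and 1480 without both replicate 1 libraries, 867 and 485 with a minimum of 5 FPKM, 893 and 1185 with GC correction, 913 and 1082 with median-of-ratios scaling, and 785 and 857 with quantile normalization. Leaving out 1 library gave 685 to 2040 higher and 394 to 734 lower.

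Of the 42 genes, 1 was higher and 2 were lower without the block. Lower counts were 30 with the replicate block, 37 with the block and median-of-ratios scaling, 37 with the block and GC correction, 26 with the block and no low-value filter (with 2 higher), and 19 with the block without replicate 1. They were 23 with array weights, 22 without both replicate 1 libraries, 15 with median-of-ratios scaling (with 0 higher), 11 with GC correction, 3 with quantile normalization, 1 with a minimum of 5 FPKM and 1 with no low-value filter (with 2 higher). Leaving out 1 library gave 0 to 2 lower and 0 to 1 higher.

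The other lysosomal genes had 1 higher and 5 lower. Higher and lower counts were 14 and 27 with the replicate block, 2 and 50 with the block and median-of-ratios scaling, 3 and 50 with the block and GC correction, 13 and 27 with the block and no low-value filter, and 7 and 21 with the block without replicate 1. They were 15 and 31 with array weights, 8 and 26 without both replicate 1 libraries, 0 and 16 with median-of-ratios scaling, 0 and 16 with GC correction, 0 higher with quantile normalization, and 2 higher with no low-value filter. Leaving out 1 library gave 0 to 1 higher and 1 to 5 lower.

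Signs turned in 9 genes, 0 of them called without the block. Atp6v0a1 was at -0.069 with median-of-ratios scaling (also with the block), -0.068 with GC correction (also with the block), -0.001 with quantile normalization and -0.064 to 0.08 with a library left out. Tfe3 was at -0.075 with median-of-ratios scaling (also with the block), -0.067 with GC correction (also with the block), -0.003 with quantile normalization and -0.066 to 0.096 with a library left out. Ctsc was at 0.003 with array weights, 0.011 without both replicate 1 libraries (also with the block) and -0.051 to 0.053 with a library left out. Gusb was at 0.016 with array weights, 0.005 without both replicate 1 libraries (also with the block) and -0.054 to 0.057 with a library left out. Lamp2 was at 0.01 with quantile normalization. With a library left out, Atp6v1h ran from -0.344 to 0.03, Atp6ap2 from -0.333 to 0.015, Glb1 from -0.159 to 0.002 and Mcoln1 from -0.128 to 0.069. The causes were not tested.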

Other observations

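Across the 40 lysosomal genes tested, more abundant transcripts had the more negative changes (Spearman's rho of change with mean FPKM of -0.31), and across all 10870 genes tested rho was -0.29. Both are descriptions over genes that share the same 6 libraries. The change was less related to transcript GC content, with a rho of -0.16 over the 40 genes and -0.11 over all genes tested.

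Fibroblast markers were lower in 2 of 10 cases without the replicate block (Pdgfrb and Dcn) and in 7 of 10 with it, with 0 higher and a median change of -0.14. Of all genes tested, 6.77% were lower without the block and 15.9% with it, and of those averaging 20 FPKM or more 7.92% and 24.9%. With no low-value filter 1 fibroblast marker was lower without the block and 4 with it (5.24% and 11% of 17334 genes). With the block and without both replicate 1 libraries 5 were lower (12.4% of all genes tested). Both cathepsin inhibitors that were tested, of 3 listed, were lower with the block and not without it. Cst3, cystatin C, and Cstb, cystatin B, had a median change of -0.17, beside -0.12 for the cathepsins.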
